A study of Mus musculus with 10 samples.

Results

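Prostanoid receptors are the cell surface receptors through which prostaglandins and thromboxane act, and their transcripts were followed here in early melanomas whose cancer cells could or could not make these lipids. All 9 genes of the mouse family were taken by name, namely *Ptger1*, *Ptger2*, *Ptger3*, *Ptger4*, *Ptgfr*, *Ptgir*, *Tbxa2r*, *Ptgdr* and *Ptgdr2*, and each was found among the 45706 genes of the count table. RNA came from 10 whole tumors taken on day 4 after injection of a *Braf*-driven mouse melanoma line, derived from mice with an activatable *Braf* allele, *Tyr*::CreERT2 and loss of p16 INK4a, into the flank of C57BL/6 hosts 8 weeks of age. There were 4 *Ptgs*+/+ tumors of unedited cells and 3 *Ptgs*-/- tumors of cells in which *Ptgs1* and *Ptgs2*, the genes of cyclooxygenase-1 (COX-1) and COX-2, had been disrupted with CRISPR/Cas9, all in hosts left untreated. A further 3 *Ptgs*-/- tumors grew in hosts depleted of natural killer (NK) cells with 200 µg anti-NK1.1 and 30 µg antibody to asialo-GM1 on days 0 and 2. No *Ptgs*+/+ tumor of a depleted host was analysed here, and loss of NK cells and the antibody treatment itself cannot be told apart. Host cells kept both *Ptgs* genes in every group, and whether the edited line was 1 clone was not stated in the sources used here.

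All prostanoids arise from arachidonic acid through COX-1 or COX-2 and a terminal synthase, and each acts on its own G protein-coupled receptors near the cell that made it. Prostaglandin E2 (PGE2) has the EP receptors EP1 to EP4, prostaglandin F2α has FP, prostacyclin has IP, thromboxane A2 has TP, and prostaglandin D2 has DP1 and DP2 (also called CRTH2). EP2, EP4, IP and DP1 couple to Gs and raise cyclic AMP (cAMP), EP3 and DP2 couple mainly to Gi and lower it, and EP1, FP and TP act mainly through Gq and calcium. In tumors, PGE2 acting on EP2 and EP4 is known to restrain NK cells, T cells and dendritic cells.

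The libraries held 8150556 to 12839174 counts, and levels are given as CPM, the count scaled to a library of 1000000. They were made from the 3′ ends of transcripts, so that a count does not scale with transcript length and CPM can be set side by side between genes. A count of 3 or fewer was treated as the detection floor, which lay at 0.234 to 0.368 CPM and covers counting error only. *Ptgs2* stood at 94.4 to 347 CPM in *Ptgs*+/+, 27.0 to 74.8 in *Ptgs*-/- and 40.2 to 49.3 CPM with NK cells depleted, and *Ptgs1* at 128 to 169.9, 77.0 to 105 and 95.3 to 97.8 CPM. Both were lower in each *Ptgs*-/- tumor than in every *Ptgs*+/+ tumor, although a 3′ count need not report an edit further upstream. *Ncr1*, which encodes the NK cell receptor NKp46, had 20, 48 and 77 counts in *Ptgs*-/- tumors and 0 in each tumor of the depleted mice. *Klrb1c*, which encodes NK1.1, was at 1.44 to 2.41 CPM in *Ptgs*+/+, 8.47 to 15.1 in *Ptgs*-/- and 0.298 to 1.01 in depleted mice. Of the melanocytic markers, *Tyr*, *Tyrp1* and *Mlana* were at the floor in all 10 tumors, whereas *Mitf* was at 17.4 to 33.1 CPM. The tumor labels carry 2 experiment codes, the second being that of *Ptgs*+/+ replicate 4 and *Ptgs*-/- replicate 3. No label says that the tumors of a group came from separate litters or cell cultures, so the p-values measure the spread between these tumors.

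The 3 receptor genes whose level changed between groups lie on 3 chromosomes, and their upstream sequences are shown to set base composition and motifs side by side. For *Ptgfr* the window is chr3:151837529-151837778 on the minus strand, for *Ptger4* chr15:5244188-5244437 on the minus strand and for *Ptger2* chr14:44987861-44988110 on the plus strand, each the 250 bases before the RefSeq transcription start (GRCm38.p6) read 5′ to 3′ along the gene. Capitals mark matches, on either strand, to the GC box GGGCGG and the CCAAT box.
Ptgfr: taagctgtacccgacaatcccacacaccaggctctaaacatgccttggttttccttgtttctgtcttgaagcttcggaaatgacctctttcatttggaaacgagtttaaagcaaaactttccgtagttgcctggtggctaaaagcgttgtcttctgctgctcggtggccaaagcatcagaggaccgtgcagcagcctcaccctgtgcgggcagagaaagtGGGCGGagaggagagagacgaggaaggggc
Ptger4: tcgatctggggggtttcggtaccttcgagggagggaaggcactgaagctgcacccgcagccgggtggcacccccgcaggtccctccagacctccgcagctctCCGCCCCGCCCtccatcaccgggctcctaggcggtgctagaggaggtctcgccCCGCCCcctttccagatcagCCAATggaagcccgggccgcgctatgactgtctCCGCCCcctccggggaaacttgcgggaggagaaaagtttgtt
Ptger2: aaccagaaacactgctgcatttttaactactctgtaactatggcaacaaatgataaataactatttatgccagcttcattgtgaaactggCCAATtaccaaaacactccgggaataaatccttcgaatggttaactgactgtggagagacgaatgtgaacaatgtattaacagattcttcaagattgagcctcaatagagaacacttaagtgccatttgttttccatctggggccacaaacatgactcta
The *Ptger4* window was 66.8% G or C and held 4 GC boxes, 2 of which share a base, and 1 CCAAT box. The *Ptger2* window was 38.0% G or C with 1 CCAAT box, and the *Ptgfr* window was 52.0% with 1 GC box, against a median of 52.4% over 32851 windows of the same length. A GC box was found in 32.7% of all these windows and a CCAAT box in 33.8%. The cAMP response element TGACGTCA (1.55% of all windows), its shorter form TGACG (17.8%), the AP-1 site TGANTCA (6.75%), the interferon-type element TTCNNNGAA (7.02%) and the TATA box TATAAA (12.4%) were not matched in these 3 windows. Among the 8 receptors with a window, which leaves out *Ptger1*, only a *Tbxa2r* window held any of these 5 motifs, a TGACG. The RefSeq start used for *Ptger2* lies 84 bases upstream of the GENCODE gene start, and that for *Ptgfr* 102 bases downstream of it. The last 102 bases of the *Ptgfr* window, which hold its GC box, therefore lie inside the GENCODE gene.

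In *Ptgs*-/- against *Ptgs*+/+ tumors, *Ptger4* and *Ptger2*, the genes of the Gs-coupled PGE2 receptors EP4 and EP2, were higher and *Ptgfr*, the gene of the F2α receptor FP, was lower. *Ptger3*, *Ptger1* and *Ptgir* did not pass the test, and *Tbxa2r*, *Ptgdr* and *Ptgdr2* had too few counts to be tested. A gene was called at an adjusted p at or under 0.05 in the quasi-likelihood test of edgeR, adjusted by Benjamini-Hochberg over 14550 genes. Of the 6 receptors tested, 2 were called higher, where 12.1% of all genes tested were, and 1 was called lower, where 11% were. When a log2 fold change of 1.5 or more in either direction was required as well, 1 receptor (*Ptgfr*) was called, against 4.15% of all genes. In whole tumors, fewer cells of a type and less RNA per cell cannot be told apart.

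**Figure D1:**
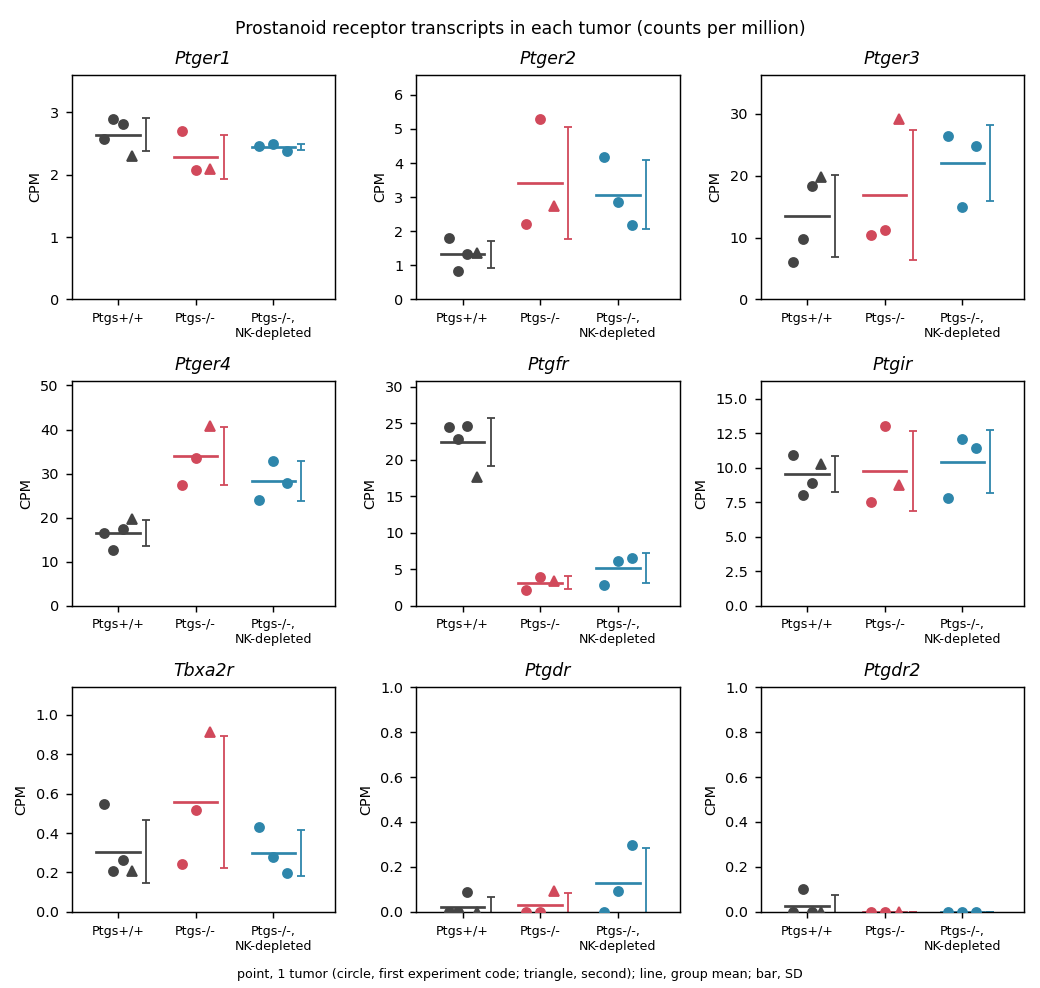
Level of each of the 9 prostanoid receptor transcripts, in CPM on a linear axis from 0 scaled per gene, in 4 *Ptgs*+/+ tumors, 3 *Ptgs*-/- tumors and 3 more from NK cell-depleted hosts. Points are tumors (triangles carry the second experiment code), lines are group means and bars the SD. *Ptgfr* lies at 17.6 CPM or more in every *Ptgs*+/+ tumor and at 6.56 or less in every other tumor, while *Ptger4* separates the same tumors in the opposite direction.

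*Ptger4* (ENSMUSG00000039942, chr15:5206661-5244187, minus strand, GRCm38, all coordinates from GENCODE M21) encodes EP4. Its level was 16.5, 12.6, 17.5 and 19.7 CPM in the 4 *Ptgs*+/+ tumors, 27.5, 33.6 and 40.9 CPM in the *Ptgs*-/- tumors, and 24.1, 32.9 and 27.9 CPM in those of NK cell-depleted mice. Every *Ptgs*-/- tumor, depleted or not, was above every *Ptgs*+/+ tumor. The mean was 16.6 ± 2.96 CPM (SD, n = 4) in *Ptgs*+/+ and 34.0 ± 6.69 CPM (SD, n = 3) in *Ptgs*-/- tumors. The log2 fold change was 0.98 (SE 0.17, 95% interval 0.60 to 1.36, adjusted p = 0.0023, edgeR). Within the second code, the single tumors stood at 40.9 CPM (*Ptgs*-/-) and 19.7 CPM (*Ptgs*+/+). Leaving out each tumor in turn gave log2 fold changes of 0.87 to 1.10, all called. *Ptger4* shares 82 exon bases with *Ttc33* and 1015 with the pseudogene *Gm15937*, both on the opposite strand, and *Gm15937* had 0 counts in all 10 tumors. *Ttc33* was at 35.9 to 40.9 CPM in *Ptgs*+/+ tumors and at 45.2 to 58.1 CPM in the others, so that it separated the same tumors in the same direction as *Ptger4*, and its part in the count of *Ptger4* was not tested.

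*Ptger2* (ENSMUSG00000037759, chr14:44988195-45003820, plus strand) encodes EP2 and was scarce. It was at 1.79, 0.825, 1.32 and 1.36 CPM in *Ptgs*+/+ tumors (23, 8, 15 and 13 counts), 2.21, 5.28 and 2.74 CPM in *Ptgs*-/- tumors (18, 51 and 30 counts), and 4.17, 2.86 and 2.19 CPM with NK cells depleted (39, 31 and 22 counts). The *Ptgs*+/+ tumors were below all others, and *Ptgs*-/- replicate 2 was the highest of the 10. *Ptgs*-/- minus *Ptgs*+/+ tumors gave a log2 fold change of 1.29 (SE 0.38, 95% interval 0.47 to 2.11, adjusted p = 0.029, edgeR). This call rests on few tumors. It was lost without *Ptgs*-/- replicate 2 (0.83, adjusted p = 0.166, edgeR), without *Ptgs*+/+ replicate 2 (1.13, adjusted p = 0.0762, edgeR), without *Ptgs*+/+ replicate 4 (1.29, adjusted p = 0.0553, edgeR) and with tumors of the first code alone (1.48, adjusted p = 0.0643, edgeR). *Ptger2* overlaps the antisense gene *Gm17173* by 246 exon bases, and *Gm17173* had 0 to 15 counts per tumor.

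*Ptger3* (ENSMUSG00000040016, chr3:157566892-157645888, plus strand) encodes EP3 and varied widely between tumors of 1 group. It was at 6.00, 9.79, 18.3 and 19.8 CPM in *Ptgs*+/+ tumors, 10.4, 11.3 and 29.1 CPM in *Ptgs*-/- tumors, and 26.4, 14.9 and 24.7 CPM in NK cell-depleted mice. All 3 groups overlapped, and in both groups of untreated hosts the highest tumor was the one that carries the second code. *Ptgs*-/- minus *Ptgs*+/+ tumors gave a log2 fold change of 0.28 (SE 0.43, 95% interval −0.66 to 1.23, adjusted p = 0.677, edgeR), and it was −0.081 with tumors of the first code alone. A change of about the size seen for *Ptger4* lies inside this interval.

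*Ptger1* (ENSMUSG00000019464, chr8:83666678-83672753, plus strand) encodes EP1 and was nearly level. It was at 2.30 to 2.89 CPM in *Ptgs*+/+, 2.07 to 2.70 CPM in *Ptgs*-/- and 2.38 to 2.49 CPM in NK cell-depleted mice. *Ptgs*-/- minus *Ptgs*+/+ tumors gave a log2 fold change of −0.27 (SE 0.22, 95% interval −0.76 to 0.21, adjusted p = 0.411, edgeR). The strand setting of the counting is not stated, so the level of *Ptger1* is uncertain.

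*Ptgfr* (ENSMUSG00000028036, chr3:151796502-151837630, minus strand) encodes FP, the receptor best known from uterine contraction and the breakdown of the corpus luteum. It had the largest difference of the 6 receptors tested. Its level was 24.5, 22.9, 24.7 and 17.6 CPM in *Ptgs*+/+ tumors, 2.21, 3.93 and 3.37 CPM in *Ptgs*-/- tumors, and 2.78, 6.09 and 6.56 CPM in those of NK cell-depleted mice. No *Ptgs*-/- tumor reached the lowest *Ptgs*+/+ tumor. The means were 22.4 ± 3.33 CPM (SD, n = 4) and 3.17 ± 0.879 CPM (SD, n = 3) in untreated hosts. The log2 fold change was −2.87 (SE 0.30, 95% interval −3.52 to −2.22, adjusted p = 0.000128, edgeR), and it ran from −3.04 to −2.69 with each tumor left out in turn, all called. The second code alone gave 3.37 CPM in the *Ptgs*-/- and 17.6 CPM in the *Ptgs*+/+ tumor. An unconfirmed transcript on the opposite strand, *Gm43618*, shares 329 exon bases with *Ptgfr* and had 9 to 25 counts in *Ptgs*+/+ tumors and 2 to 6 in the others, against 168 to 315 and 18 to 66 counts of *Ptgfr*.

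*Ptgir* (ENSMUSG00000043017, chr7:16906490-16910905, plus strand) encodes IP, known for its part in vessel relaxation and in holding back platelets. It was at 10.9, 8.04, 8.87 and 10.3 CPM in *Ptgs*+/+, 7.48, 13.04 and 8.75 CPM in *Ptgs*-/- and 7.81, 12.1 and 11.4 CPM in NK cell-depleted mice, with all groups overlapping. *Ptgs*-/- minus *Ptgs*+/+ tumors gave a log2 fold change of −0.020 (SE 0.22, 95% interval −0.51 to 0.47, adjusted p = 0.961, edgeR), and its sign varied with the settings.

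The receptors for thromboxane and prostaglandin D2 were at the limit of detection. *Tbxa2r* (ENSMUSG00000034881, chr10:81328731-81335172, plus strand), which encodes TP, had 7, 2, 3 and 2 counts in *Ptgs*+/+ tumors, 2, 5 and 10 in *Ptgs*-/- tumors and 4, 3 and 2 in NK cell-depleted mice, so that 6 of 10 tumors were at the floor. *Ptgdr* (ENSMUSG00000071489, chr14:44851235-44859375, minus strand), the gene of DP1, was at the floor in all 10 tumors with at most 3 counts. *Ptgdr2* (ENSMUSG00000034117, chr19:10937160-10942511, plus strand), the gene of DP2, had 1 count in *Ptgs*+/+ replicate 2 and none elsewhere. A difference in these 3 genes was not detectable at this depth.

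Depletion of NK cells in hosts of *Ptgs*-/- tumors went with no receptor difference that passed the test. Of 6 receptors tested between *Ptgs*-/- tumors of untreated and of depleted hosts, edgeR called 0, where 0.515% of all genes tested were called higher and 0.921% lower in untreated hosts, and 1.15% with the fold also required. DESeq2 also called 0, and 1 receptor, *Ptgfr*, had an unadjusted p under 0.05 in edgeR. For *Ptgfr* the log2 fold change was −0.72 (SE 0.32, 95% interval −1.41 to −0.02, adjusted p = 0.429, edgeR), with the 3 values of each group overlapping. For *Ptger4* it was 0.24 (SE 0.18, 95% interval −0.17 to 0.64, adjusted p = 0.695, edgeR), and for *Ptger2* 0.13 (SE 0.38, 95% interval −0.70 to 0.96, adjusted p = 0.923, edgeR). The intervals of *Ptger3* (−1.40 to 0.60), *Ptgir* (−0.64 to 0.40) and *Ptger1* (−0.66 to 0.40) all included 0.

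*Ptgs*-/- tumors of depleted mice were also set against *Ptgs*+/+ tumors, a comparison that shares its control tumors with the first. Of the 6 receptors tested, 1 (*Ptger4*) was called higher, where 6.63% of all genes were, and 1 (*Ptgfr*) lower, where 5.87% were. *Ptgfr* alone passed when the fold was added, against 2.71% of all genes. *Ptgfr* had a mean of 5.14 ± 2.06 CPM (SD, n = 3) in the depleted mice, and its log2 fold change was −2.15 (SE 0.28, 95% interval −2.76 to −1.54, adjusted p = 0.000515, edgeR). *Ptger4* had a mean of 28.3 ± 4.44 CPM (SD, n = 3) there and a log2 fold change of 0.74 (SE 0.17, 95% interval 0.37 to 1.12, adjusted p = 0.016, edgeR). That call was lost without replicate 2 of the depleted mice (0.61, adjusted p = 0.0807, edgeR) and without replicate 3 (0.77, adjusted p = 0.0508, edgeR). *Ptger2* had a log2 fold change of 1.16 (SE 0.38, 95% interval 0.33 to 1.98) and missed the threshold (adjusted p = 0.0684, edgeR). It passed without a filter on low counts (1.18, adjusted p = 0.0414, edgeR), with the likelihood ratio test (adjusted p = 0.0318, edgeR), with only these groups fitted (adjusted p = 0.047, edgeR) and without *Ptgs*-/- replicate 2 of the untreated hosts (adjusted p = 0.0411, edgeR).

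**Figure D2:**
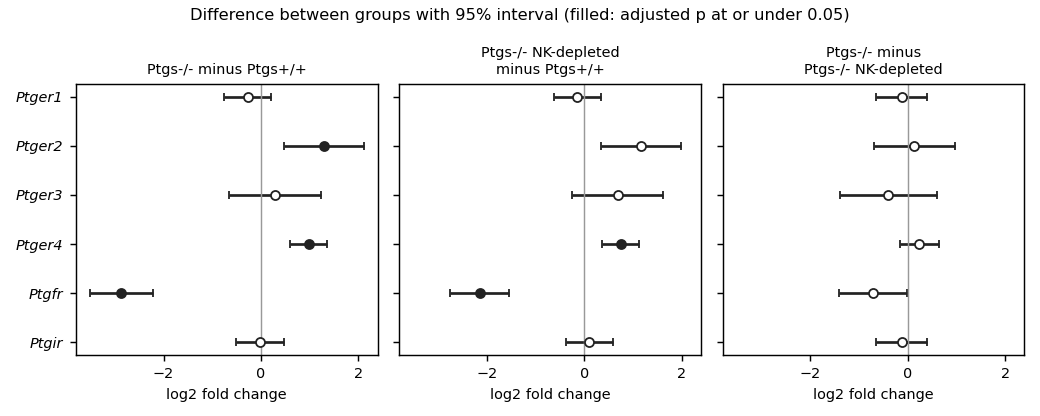
Log2 fold change of the 6 prostanoid receptors tested in each of the 3 comparisons, with 95% intervals from edgeR. Filled points have an adjusted p at or under 0.05. *Ptgfr* is far below 0 in both comparisons with *Ptgs*+/+ tumors (−2.87 and −2.15), *Ptger4* is above it in both (0.98 and 0.74), and no receptor is filled where *Ptgs*-/- tumors of untreated and depleted hosts are compared.

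The sum of the 9 receptors overlapped between groups while its make-up differed. It was 66.3 ± 7.56 CPM (SD, n = 4) in *Ptgs*+/+ tumors, 70.1 ± 17.6 CPM (SD, n = 3) in *Ptgs*-/- tumors and 71.9 ± 3.76 CPM (SD, n = 3) where NK cells had been depleted. *Ptgfr* took 34.3 ± 7.0% of the receptor counts in *Ptgs*+/+ tumors, 4.55 ± 0.955% in *Ptgs*-/- tumors and 7.08 ± 2.59% with NK cells depleted (SD over tumors). *Ptger4* took 24.9 ± 2.56%, 48.9 ± 2.88% and 39.4 ± 5.70% in the same groups. The Gs-coupled receptors together (*Ptger2*, *Ptger4*, *Ptgir* and *Ptgdr*) held 37.4 to 46.5% of the receptor counts of a *Ptgs*+/+ tumor, 59.6 to 74.5% of a *Ptgs*-/- tumor and 52.9 to 66.8% of a tumor from a depleted mouse. These shares are a description and rest on the same counts as the tests above.

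**Figure D3:**
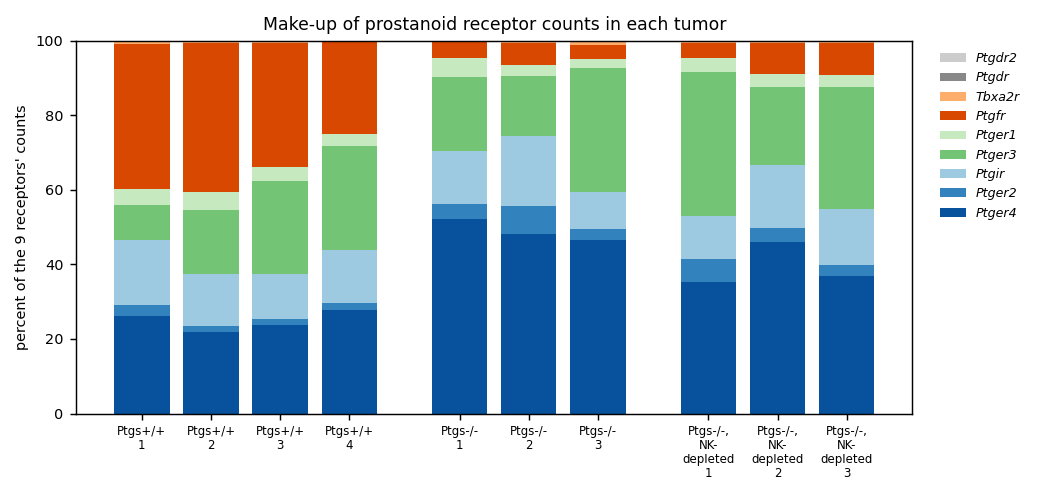
Share of each receptor in the counts of all 9, in percent, for each of the 10 tumors. Blue shades mark the Gs-coupled receptors *Ptger4*, *Ptger2* and *Ptgir*, and dark orange marks *Ptgfr*, which takes 24.7 to 39.9% of the bar in *Ptgs*+/+ tumors and at most 8.66% in the others.

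The order of the receptors by mean level differed too. In *Ptgs*+/+ tumors it ran from *Ptgfr* through *Ptger4* and *Ptger3* to *Ptgir*, with neighbors in this order overlapping between tumors, and then, each apart from the one before, *Ptger1*, *Ptger2* and *Tbxa2r*. In *Ptgs*-/- tumors *Ptger4*, *Ptger3* and *Ptgir* led, each overlapping its neighbor in this order, followed apart from them by *Ptger2*, *Ptgfr* and *Ptger1*, which overlapped, and by *Tbxa2r*. In NK cell-depleted mice *Ptger4* and *Ptger3* overlapped, *Ptgir* lay below both, and *Ptgfr*, *Ptger2* and *Ptger1* followed at means of 5.14, 3.07 and 2.45 CPM, each overlapping its neighbor in this order.

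Other genes of the prostanoid pathway were examined by role. Of 58 such genes 54 were tested, and in *Ptgs*-/- against *Ptgs*+/+ tumors 6 were called higher and 7 lower, beside 12.1% and 11% of all genes tested, with a median log2 fold change of −0.10 beside −0.0060 over all genes. In NK cell-depleted *Ptgs*-/- against *Ptgs*+/+ tumors 3 were higher and 5 lower, beside 6.63% and 5.87% of all genes. Nothing about the pathway as a whole is read from these counts. Between untreated and depleted hosts 1 was called, beside 0.515% of all genes called higher and 0.921% called lower: *Grk3*, a kinase that desensitizes activated receptors, which was higher in untreated hosts by 0.78 (SE 0.16, adjusted p = 0.0329, edgeR).

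Ligand synthesis was the longest of the pathway lists. In *Ptgs*-/- against *Ptgs*+/+ tumors 2 of 12 genes were higher and 4 lower, beside 12.1% and 11% of all genes tested. The largest differences were in *Ptgs2* (−2.62, SE 0.46, adjusted p = 0.00229, edgeR), *Tbxas1* (1.86, SE 0.19, adjusted p = 0.000115, edgeR) and *Ptgs1* (−0.76, SE 0.13, adjusted p = 0.00202, edgeR). *Tbxas1*, which encodes thromboxane synthase, stood at 10.3 to 20.01 CPM in *Ptgs*+/+, 51.9 to 70.8 CPM in *Ptgs*-/- and 45.3 to 53.6 CPM in NK cell-depleted mice, with the *Ptgs*+/+ tumors apart from the rest. Its product acts on TP, whose gene *Tbxa2r* was near the floor in the same tumors. *Ptges*, *Ptges3* (PGE synthases) and *Hpgds* (a PGD synthase) made up the other calls. In depleted mice 1 of the 12, *Tbxas1* (1.54, SE 0.19, adjusted p = 0.000353, edgeR), was higher than in *Ptgs*+/+ tumors and 3 were lower, beside 6.63% and 5.87% of all genes.

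Downstream of the receptors, calls went both ways, and the shares of all genes called are those given for the pathway above. *Adcy7*, an adenylyl cyclase, was higher by 1.18 (SE 0.16, adjusted p = 0.000512, edgeR) in *Ptgs*-/- against *Ptgs*+/+ tumors and by 0.79 in depleted mice (SE 0.16, adjusted p = 0.00734, edgeR), and *Adcy4* was lower in the first comparison with a log2 fold change of −0.94 (SE 0.29, adjusted p = 0.036, edgeR), out of 6 cyclases tested. Of 9 cAMP effectors, *Rapgef3*, the gene of the cAMP sensor EPAC1, was higher in both comparisons, by 1.43 (SE 0.11, adjusted p = 3.55e-05, edgeR) and 1.54 (SE 0.11, adjusted p = 3.65e-05, edgeR). It stood at 60.6 to 80.2 CPM in *Ptgs*+/+ tumors, 175 to 224 CPM in *Ptgs*-/- tumors and 201 to 220.0 CPM in depleted mice, with no overlap between *Ptgs*+/+ tumors and the others. *Prkar2b*, a regulatory subunit of protein kinase A, was lower in both (−0.64 and −0.46). Of 7 genes of cAMP breakdown, *Pde4b*, a phosphodiesterase, was lower in both, with log2 fold changes of −1.19 (SE 0.16, adjusted p = 0.000614, edgeR) and −0.98 (SE 0.16, adjusted p = 0.00261, edgeR). It was at 31.7 to 41.7 CPM in *Ptgs*+/+ tumors and 12.4 to 20.9 CPM in all others. Of 7 genes of receptor desensitization, *Grk3* (1.07) and *Arrb2* (0.73), the gene of β-arrestin 2, were higher in *Ptgs*-/- against *Ptgs*+/+ tumors. Among 8 G protein alpha subunits and 5 genes of ligand transport and breakdown, edgeR called 0 in each of the 3 comparisons, with unadjusted p under 0.05 for 1 subunit in the first and for 0, 1 and 2 transport and breakdown genes. DESeq2 called 1 of these genes, a transport and breakdown gene in depleted mice against *Ptgs*+/+ tumors.

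**Figure D4:**
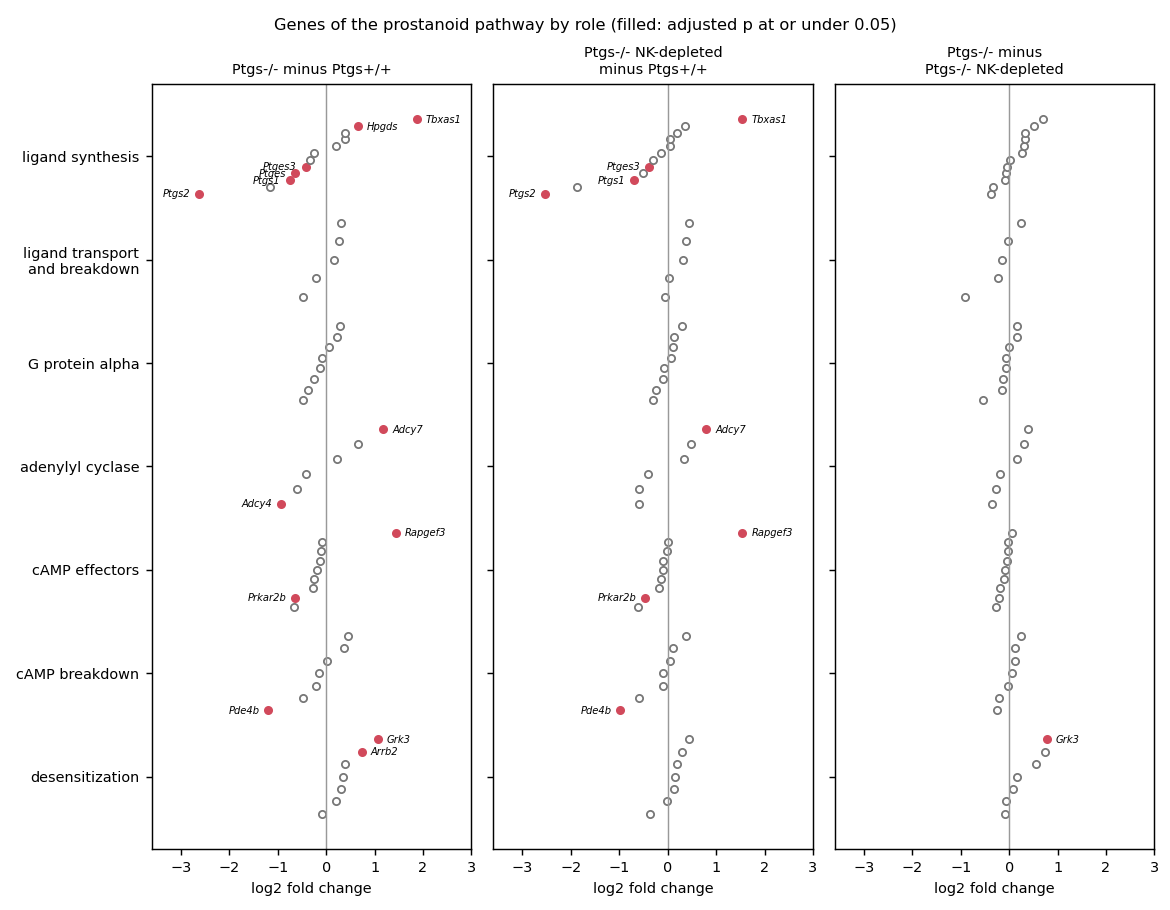
Log2 fold change of the 54 pathway genes tested, other than the receptors, grouped by role, in each of the 3 comparisons. Filled, named points have an adjusted p at or under 0.05 in edgeR. *Ptgs2* (−2.62) and *Tbxas1* (1.86) lie at the ends of the range in the first comparison, and *Grk3* is the only filled point between untreated and depleted hosts.

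Cell type markers differed between *Ptgs*-/- and *Ptgs*+/+ tumors, as some receptors did. Some markers also differed between untreated and depleted hosts of *Ptgs*-/- tumors, where no receptor was called. In untreated against depleted hosts, 8 of 8 NK cell and 1 of 7 dendritic cell markers were higher, beside 0.515% of all genes tested. Lower there were 6 of 8 skeletal muscle, 2 of 6 neutrophil and 1 of 8 smooth muscle and pericyte markers, beside 0.921%. The other marker lists had no call there. In *Ptgs*-/- against *Ptgs*+/+ tumors edgeR called higher 8 of 8 NK cell markers, 6 of 7 T cell markers, 5 of 8 macrophage markers and 5 of 7 dendritic cell markers, beside 12.1% of all genes tested, alongside *Ptger4* and *Ptger2*. Their summed levels were 15.1 to 35.0, 79.5 to 182 and 5.67 to 6.09 CPM for NK cells in *Ptgs*+/+ tumors, *Ptgs*-/- tumors and *Ptgs*-/- tumors of depleted mice. In the same order, they were 4.65 to 6.49, 13.4 to 40.3 and 10.7 to 15.8 CPM for T cells, 1721 to 2028, 2702 to 4269 and 2486 to 2824 CPM for macrophages, and 30.3 to 45.8, 97.0 to 145 and 66.9 to 82.7 CPM for dendritic cells. The NK cell sums of depleted mice lay below those of *Ptgs*+/+ tumors. The part of NK cells, T cells, macrophages and dendritic cells in the rise of *Ptger4* and *Ptger2* was not tested.

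Some markers of other cell types were called lower in the comparison of untreated hosts, in which *Ptgfr* was lower too. In *Ptgs*-/- against *Ptgs*+/+ tumors 4 of 6 neutrophil, 2 of 5 platelet and 2 of 8 endothelial markers were lower, beside 11% of all genes tested. So were 1 of 8 smooth muscle and pericyte markers and 1 of 4 keratinocyte markers, and nothing is read from a single call. The platelet calls were *Pf4* and *Ppbp*, while the median log2 fold change of the 5 platelet markers tested was 0.34. The sums, in the order of groups above, were 198 to 268, 39.9 to 61.0 and 90.2 to 126 CPM for neutrophils. The neutrophil calls were *Cxcr2*, *S100a8*, *S100a9* and *Mmp8*. The defining marker *Ly6g*, at 0 in all *Ptgs*-/- tumors of untreated hosts, was not among them. In depleted mice against *Ptgs*+/+ tumors, 3 of 6 neutrophil markers were lower (*Cxcr2*, *S100a8* and *S100a9*), beside 5.87% of all genes tested. Another neutrophil marker, *Retnlg*, was called higher there, beside 6.63%, and the median log2 fold change of the 6 was −0.67. The sums were 452 to 533, 249 to 360 and 265 to 302 CPM for platelets, and 357 to 419, 144 to 340 and 241 to 357 CPM for endothelial cells. They were 248 to 356, 104 to 249.8 and 366 to 738 CPM for smooth muscle and pericytes, and 21.0 to 31.4, 20.2 to 24.3 and 27.1 to 29.5 CPM for keratinocytes. In depleted mice against *Ptgs*+/+ tumors, *Des* alone of the 8 smooth muscle and pericyte markers was called higher. The median log2 fold change of that list was −0.13. A sum follows its most abundant markers and need not follow the median of its list. For eosinophils, basophils and mast cells 1 of 7 markers was higher (*Siglecf*), beside 12.1% of all genes tested, and 1 lower (*Il1rl1*). The median log2 fold change of the 7 was 0.34, while the sums were 497 to 710, 163 to 218 and 216 to 279.7 CPM. *Epx* was at 0 in all 10 tumors. Fibroblast markers went the other way, with 4 of 8 higher, beside 12.1% of all genes tested, and sums of 6097 to 8238, 11017 to 13886 and 8666 to 11214 CPM. The part of these cells in the fall of *Ptgfr* was not tested.

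Skeletal muscle markers set the depleted mice apart, with sums of 16.8 to 151, 95.7 to 342 and 2093 to 4954 CPM. Against *Ptgs*+/+ tumors, 2 of 8 markers were higher in *Ptgs*-/- tumors of untreated hosts, beside 12.1% of all genes tested. In depleted mice 8 of 8 were higher, beside 6.63%. Fat markers summed to 1085 to 5431, 708 to 3005 and 1884 to 3793 CPM, and melanocytic markers to 27.8 to 49.0, 32.3 to 44.2 and 38.8 to 40.5 CPM. edgeR and DESeq2 called 0 of 8 fat and 0 of 3 melanocytic markers in each comparison, and 0, 1 and 1 fat and 0 melanocytic markers had an unadjusted p under 0.05 in edgeR. The part of muscle tissue in the comparisons of depleted mice was not tested.

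As a description, the genes most like each receptor across the 10 tumors were ranked by Pearson's r of log2(CPM + 1), which rests on the differences between the 3 groups that these tumors share. Nearest to *Ptger4* were *Rasgrp1* (r = 0.974), a Ras activator of lymphocytes, *Cd74* (r = 0.972), the invariant chain of MHC class II, and *Cyp27a1* (r = 0.969), a sterol hydroxylase. Nearest to *Ptger2* were *Ccdc12* (r = 0.959), *Siglecg* (r = 0.931), an inhibitory lectin of B cells, and *Rtl3* (r = 0.924). For *Ptgfr*, which was added after its values had been seen, they were *Polr3g* (r = 0.980), a subunit of RNA polymerase III, *Ndufaf4* (r = 0.980), an assembly factor of respiratory complex I, and *Smc2* (r = 0.974), a subunit of condensin.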

How the data were processed

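Bulk tumor RNA was sequenced as QuantSeq 3′ libraries. The authors trimmed reads with BBDUK, fqtrim and cutadapt, aligned them to GRCm38 with STAR and assigned them to genes with featureCounts, and what they deposited are raw counts of each tumor, not normalized. Strand setting and treatment of multi-mapping reads are not given in the sources used here. Some overlaps of receptor genes with other genes are not reported here. Samples were grouped from the submitters' labels. Of 45706 identifiers, 45143 were named by GENCODE M21.

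R 4.3.3 and edgeR 4.0.16 were used, with filterByExpr (14550 genes kept), TMM factors and the quasi-likelihood test, all 10 tumors in 1 model, Benjamini-Hochberg adjustment. Fold changes are on the log2 scale, and intervals use the test's moderated degrees of freedom. Levels are CPM of the library total. Python 3.11.15 and SciPy 1.17.1 made the summaries. The pipeline was tested on simulated data. Replicates differed by 7.41 to 30.1 chi-square per degree of freedom, so none was a library deposited more than once. The receptors, the pathway and marker lists, and the motifs were chosen with earlier results of these data known, and the GC, CCAAT and TATA boxes after the windows had been read. Named are all 9 receptors, *Ptgs1*, *Ptgs2*, *Ncr1* and *Klrb1c*, per pathway list and comparison up to 3 called genes of largest fold change, and the 3 genes most like *Ptger2* and *Ptger4*. Other called pathway genes, *Ttc33*, *Gm15937*, *Gm17173*, *Gm43618*, single markers and the genes like *Ptgfr* were named after their values were seen. Alternatives were DESeq2 1.42.0, library size alone, other filters, a likelihood ratio test, an added fold threshold, the experiment code as a term, the first code alone, only 2 groups fitted, a replicate block, each tumor left out, and TMM-scaled CPM for levels.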

Additional observations from a re-analysis of the deposited data

Results flagged for a closer look

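In the 4 *Ptgs*+/+ tumors, 3 of 30 genes checked for a tumor far from the others had one. *Tbxa2r* was at 0.545 CPM (7 counts) in replicate 1 against 2 or 3 counts in the other replicates, where chance alone sets about 1 in 20 genes apart in this way. *Ptgdr* was at 0.0878 CPM in replicate 3, and *Ptgdr2* at 0.103 CPM in replicate 2, each 1 count where the other replicates had 0. A single count against 0 is always set apart by this measure, and both values are below the floor of 3 counts, so they say nothing about these tumors.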

How the results depend on the processing

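The calls of *Ptgfr* in both comparisons with *Ptgs*+/+ tumors and of *Ptger4* in the first held under every alternative run, except that *Ptger4* is under the added fold threshold of 1.5. With that threshold 1 receptor each was called in *Ptgs*-/- and in depleted *Ptgs*-/- against *Ptgs*+/+ tumors. Leaving out each tumor in turn gave 2 to 3, 0 to 0 and 1 to 3 receptors called in *Ptgs*-/- against *Ptgs*+/+, *Ptgs*-/- of untreated against depleted hosts, and depleted *Ptgs*-/- against *Ptgs*+/+ tumors. DESeq2 called 3, 0 and 2. The fit with a replicate block, by the number in the labels, also called 3, 0 and 2. Same-numbered tumors did not all deviate together from their group means (r over genes of −0.19 to 0.36 between *Ptgs*+/+ and *Ptgs*-/- tumors), nor did each correlate best with its own number, so the number was treated as a name.

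Signs reversed only among differences that passed no test. In *Ptgs*-/- against *Ptgs*+/+ tumors, *Ptger3* was at −0.081 with the first code alone and at −0.31 to 0.52 with each tumor left out. *Ptgir* was at 0.038 with library size alone, 0.00062 with no filter, 0.025 with at least 10 counts in every tumor, 0.13 with the first code alone and −0.28 to 0.13 with each tumor left out. Between untreated and depleted hosts, with each tumor left out, *Ptger2* ran from −0.32 to 0.41 and *Ptgir* from −0.38 to 0.024, and in depleted *Ptgs*-/- against *Ptgs*+/+ tumors *Ptgir* ran from −0.024 to 0.27. The cause was not tested. With at least 10 counts in every tumor *Ptger2* was not tested. Depth limits *Ptger2* (8 to 51 counts) and leaves *Tbxa2r*, *Ptgdr* and *Ptgdr2* out of reach. All 27 group levels moved by less than 1 SD with TMM-scaled CPM.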
